A study of Mus musculus with 33 samples.

Results

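The genes described here encode proteins that write, erase or read chemical marks on chromatin or slide and eject nucleosomes. They were chosen by name from the array's gene symbols, as the Hdac, Sirt, Kat, Kdm, Kmt, Setd, Ezh, Prmt, Dnmt, Tet, Brd, Cbx, Chd and Smarc families. Of 86 such genes on the platform, 72 had a value on at least 1 array, out of 9672 genes with values in all, and 14 had none. The 14 without values were Chd1l, Chd4, Hdac8, Hdac11, Kdm5a, Kdm6a, Kdm7a, Kmt2c, Kmt2e, Kmt5b, Prmt1, Prmt3, Smarcad1 and Smarcd1. By role, the 72 comprised 4 arginine methyltransferases, 12 histone lysine methyltransferases, 9 histone lysine demethylases, 5 histone acetyltransferases, 12 histone deacetylases and sirtuins, 5 DNA methyltransferases and TET dioxygenases, 10 bromodomain and chromobox readers, and 15 ATP-dependent remodellers and their subunits.

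The study asked how gene expression in mouse spleen cells responds to bacterial-type DNA. Whole spleen cell suspensions from female BALB/c mice aged 2 months were cultured for 2, 4 or 8 h in 3 ways: with an equimolar mix of CpG ODN 1555 and 1466 at 1 uM, with an equimolar mix of control ODN 1612 and 1471 at the same dose, or in medium alone. An ODN is a short synthetic DNA strand; the CpG ODN carry unmethylated CpG motifs of the kind that Toll-like receptor TLR9 detects, and the control ODN test for effects of DNA that need no such motif. Each group held 4 arrays at 2 h and at 4 h and 3 arrays at 8 h, 33 in all, and the series' design text describes the repeats as separate experiments. The labels do not say how many mice gave cells to an array. On each array the spleen RNA carried Cy5 and a commercial mouse reference RNA carried Cy3; that reference mixes RNA of lymphocytes, macrophages, liver, kidney and testis. A value is therefore a log2 ratio of spleen RNA to that pool, and only differences between groups are read here. A log2 difference of 1 is a 2-fold difference.

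Enzymes that add methyl or acetyl groups to histones change how tightly DNA is packed and which proteins bind it, and other enzymes remove the same groups. Readers with a bromodomain or chromodomain bind the marks, and remodellers of the SWI/SNF, ISWI and CHD families use ATP to move nucleosomes. In macrophages and B cells, activation through Toll-like receptors is known to require nucleosome remodelling at many inducible genes, and the Polycomb enzyme Ezh2 is known to be needed for B cells to form germinal centres.

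The arrays gave values for 6913 to 9530 genes each, and no other measure of depth is given; 44 of the 72 chromatin genes were measured on all 33 arrays, the other 28 on 24 or more. Every pair of arrays correlated between 0.662 and 0.961. Of 15 B cell markers with values, 8 were measured on every array, and their mean log2 ratio lay between 1.96 and 3.01. This level is relative to a reference pool that itself holds lymphocyte RNA. Single B cell markers such as Ms4a1, Blk and Spib had mean ratios below 0 in each group at 8 h. A list of known CpG responses, such as Il6 and Cxcl10, had 10 measured genes. At 8 h all 10 were higher with CpG ODN against either control (limma adjusted p below 0.05). The background called higher was 4.55% against control ODN and 5.66% against medium. This list was chosen with earlier results of these data known, so the count is no independent check of the arrays. The medium array of replicate 2 at 8 h stood apart for several chromatin genes. Its median absolute distance from the mean of the other medium arrays was 0.531 over the chromatin genes measured on every array of the group, against 0.476 for replicate 1 and 0.212 for replicate 3. Replicate 1 thus lay nearly as far, and this measure does not single out replicate 2. Calls against medium at 8 h that rest on replicate 2 are given with and without it.

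Promoters are printed for the 3 genes with the largest rises and the 2 with falls that were called at 8 h against both controls, so that the sequence upstream of each can be seen beside its values. A gene is called here where the adjusted p is below 0.05. Each stretch runs 5′ to 3′ along the gene's own strand from 250 bases before to 50 bases after the annotated start, is taken from RefSeq on build GRCm38.p6, and has in capitals the letters that match GGG, any 5 bases, then CC on either strand, an NF-kB-like pattern. Prmt5 lies at chr14:54517421-54517720 on the minus strand, Prmt7 at chr8:106210804-106211103 on the plus strand and Ezh2 at chr6:47594981-47595280 on the minus strand. Smarca2 lies at chr19:26604910-26605209 on the plus strand, and Sirt3, with 1 of its 2 entries shown, at chr7:140882260-140882559 on the minus strand.
Prmt5: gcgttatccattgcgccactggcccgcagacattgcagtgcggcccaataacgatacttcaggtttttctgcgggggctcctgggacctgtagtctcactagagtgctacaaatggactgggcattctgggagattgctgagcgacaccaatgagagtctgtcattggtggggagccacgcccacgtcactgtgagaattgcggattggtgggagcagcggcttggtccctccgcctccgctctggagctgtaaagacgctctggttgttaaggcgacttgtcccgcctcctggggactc
Prmt7: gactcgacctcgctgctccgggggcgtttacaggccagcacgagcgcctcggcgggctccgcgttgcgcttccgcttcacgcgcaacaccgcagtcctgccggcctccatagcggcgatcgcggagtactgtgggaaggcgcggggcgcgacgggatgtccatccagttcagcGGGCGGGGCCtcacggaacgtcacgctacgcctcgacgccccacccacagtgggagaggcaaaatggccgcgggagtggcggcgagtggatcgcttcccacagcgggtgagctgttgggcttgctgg
Ezh2: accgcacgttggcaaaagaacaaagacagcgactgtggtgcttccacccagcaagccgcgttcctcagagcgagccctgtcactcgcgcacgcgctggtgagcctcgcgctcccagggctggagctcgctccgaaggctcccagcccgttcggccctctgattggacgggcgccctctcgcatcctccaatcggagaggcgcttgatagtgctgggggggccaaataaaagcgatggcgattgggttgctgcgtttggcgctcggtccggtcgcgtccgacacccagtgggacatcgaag
Smarca2: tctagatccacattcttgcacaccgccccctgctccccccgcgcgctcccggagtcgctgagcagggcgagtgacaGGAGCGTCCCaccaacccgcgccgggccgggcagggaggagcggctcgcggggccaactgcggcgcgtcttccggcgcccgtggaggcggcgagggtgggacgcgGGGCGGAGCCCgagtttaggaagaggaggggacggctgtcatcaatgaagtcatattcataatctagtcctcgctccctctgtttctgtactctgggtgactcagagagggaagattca
Sirt3: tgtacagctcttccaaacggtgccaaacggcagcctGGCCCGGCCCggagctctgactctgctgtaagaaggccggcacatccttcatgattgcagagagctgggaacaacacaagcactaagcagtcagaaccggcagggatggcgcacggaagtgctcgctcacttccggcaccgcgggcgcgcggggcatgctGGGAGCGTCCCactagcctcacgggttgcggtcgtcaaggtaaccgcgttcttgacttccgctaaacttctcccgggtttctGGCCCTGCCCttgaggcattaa
This pattern occurred 1 time in the Prmt7 stretch, beginning 77 bases before the start, 3 times in Smarca2 and 4 times in Sirt3, with neighbouring matches overlapping on opposite strands. It was absent from these 300 bases of Prmt5 and Ezh2. It is common: 39 of 61 chromatin gene promoters in the RefSeq table held it (63.9%), against 50.4% of 27025 promoters in all. The other 3 patterns searched on both strands, GAAA then any 2 bases then GAAA (ISRE-like), CACGTG (E-box) and TGACGTCA (CRE), occurred in none of the 5 stretches. They were found in 1.64%, 6.56% and 1.64% of chromatin gene promoters, against 3.49%, 7.23% and 1.86% of all promoters. The 61 promoters had a median GC content of 61.0% and a median of 23 CG dinucleotides, against 52.7% and 7 for the whole table, and these base compositions bear on how often a GC-rich pattern is met.

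At 8 h, 8 of the 72 chromatin genes differed between CpG ODN and control ODN, which is 11.1% of them; over all genes tested the share was 10.0% (949 of 9494). The genes higher with CpG ODN were Prmt5, Prmt7 and Ezh2, against a background of 4.55% called higher. The lower ones were Smarca2, Setd6, Sirt3, Sirt2 and Kdm5b, against a background of 5.45% called lower. Against medium, 10 of 72 differed (13.9%, background 11.8%), with Prmt7, Setd1a, Prmt5, Hdac3 and Ezh2 higher (background 5.66%) and Smarca2, Kat6b, Kdm4c, Sirt3 and Smarcc2 lower (background 6.11%). At an unadjusted p below 0.05 the counts were 19 of 72 against control ODN (background 22.2%) and 21 of 72 against medium (background 25.0%). The chromatin genes as a class were thus called about as often as any other genes. Under quantile normalization the split was 3 higher and 2 lower against control ODN, and 4 higher and 2 lower against medium. The background shares above belong to the reported scaling, not to this one.

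Both controls gave a call of the same sign for 5 of 72 chromatin genes (6.94%; over all genes 7.43%): Prmt5, Prmt7 and Ezh2 were higher (background 3.75%), Smarca2 and Sirt3 lower (background 3.68%). They are 62.5% of the calls against control ODN and 50.0% of those against medium, and both comparisons use the same 3 CpG ODN arrays.

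**Figure D1:**
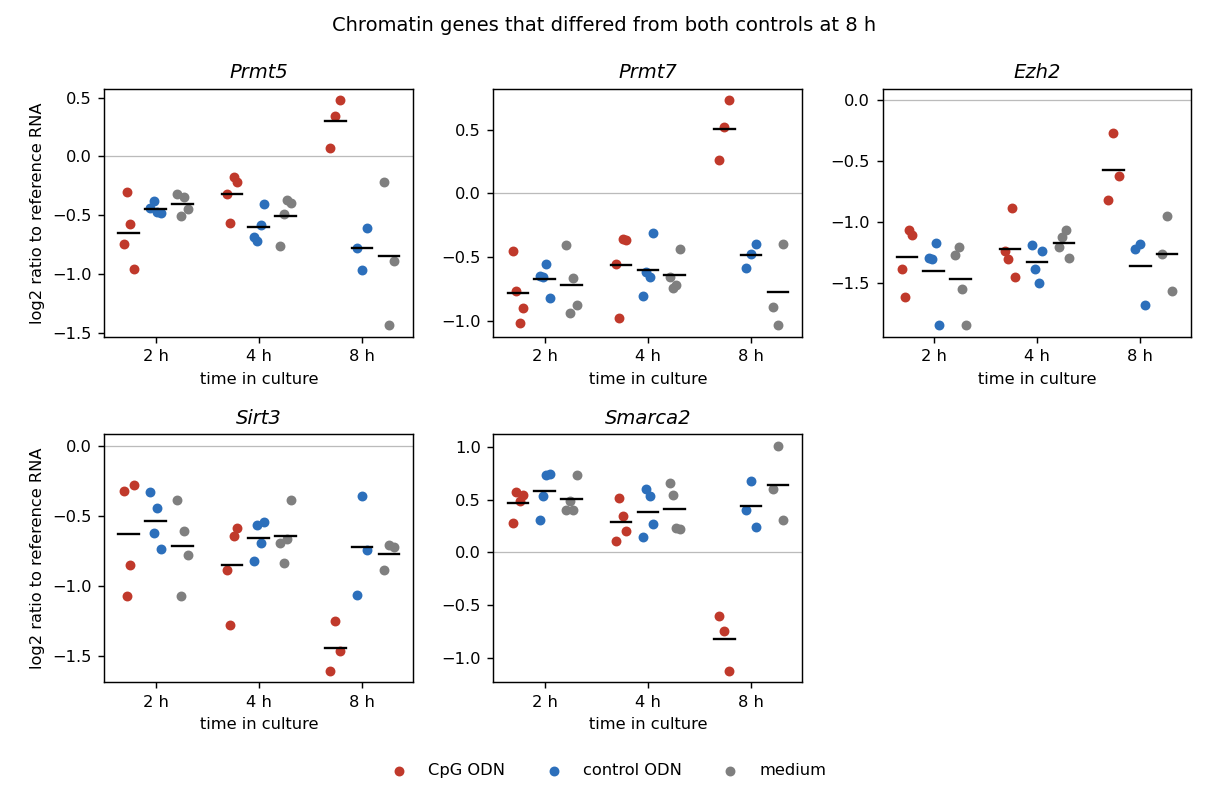
Log2 ratio to the reference RNA (vertical axis) by time in culture (horizontal axis) for the 5 chromatin genes called against both controls at 8 h; each point is 1 array, bars are group means, and CpG ODN stands left of control ODN and medium at each time. At 8 h the 3 CpG ODN arrays of Prmt5 lie between 0.07 and 0.48 and those of Smarca2 between -1.12 and -0.60, apart from the arrays of either control, while at 2 h and 4 h the groups overlap.

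Protein arginine methyltransferases add methyl groups to arginines of histones and of many splicing and signalling proteins. The 4 measured members were Prmt2, Prmt5, Prmt6 and Prmt7, and 2 of them rose with CpG ODN at 8 h against each control (50.0%, background for higher 4.55% and 5.66%). Prmt5 is the main enzyme of symmetric arginine dimethylation. Its log2 ratios at 8 h were 0.07, 0.34 and 0.48 with CpG ODN, against -0.78, -0.97 and -0.61 with control ODN and -0.22, -1.44 and -0.89 in medium. All 3 CpG ODN arrays were above all 6 others. The difference was 1.08 ± 0.21 (SE; limma adjusted p = 8.56e-04) against control ODN and 1.15 ± 0.21 (adjusted p = 3.84e-04) against medium. At 2 h the CpG ODN arrays of Prmt5 lay between -0.96 and -0.31, and the difference against control ODN was -0.20 ± 0.19; at 4 h it was 0.28 ± 0.19. Neither passed the test.

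Prmt7 places single methyl groups on arginine. At 8 h it stood at 0.26, 0.52 and 0.73 with CpG ODN, against -0.58, -0.47 and -0.40 with control ODN and -0.89, -1.04 and -0.40 in medium. The groups did not overlap, and the CpG ODN arrays were the only ones of the whole series above 0 for this gene. The difference was 0.99 ± 0.20 (adjusted p = 1.15e-03) against control ODN and 1.28 ± 0.20 (adjusted p = 3.92e-05) against medium. For Prmt5 and Prmt7 the difference between CpG ODN and control ODN was itself larger at 8 h than at 2 h, by 1.28 ± 0.28 (adjusted p = 5.62e-03) and 1.11 ± 0.27 (adjusted p = 0.0131). Without the CpG ODN array of replicate 3 the growth of the Prmt7 difference was 1.00 and its adjusted p 0.0555. Prmt6, which makes asymmetric dimethylarginine, was 0.84, 0.81 and 0.85 with CpG ODN at 8 h, against 0.73, 0.31 and 0.25 with control ODN and 0.02, 0.67 and 0.25 in medium. Its CpG ODN arrays lay close together and above the others, yet the difference of 0.41 ± 0.27 did not pass (adjusted p = 0.417). Prmt2 had a difference of -0.45 ± 0.27 (adjusted p = 0.345).

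Among the 12 lysine methyltransferases, 1 was higher and 1 lower with CpG ODN than with control ODN at 8 h (16.7%, background 10.0%). The median difference was 0.01, against -0.12 over all genes. Ezh2 is the catalytic subunit of the Polycomb complex PRC2, which lays down a repressive mark. Its ratios at 8 h were -0.82, -0.27 and -0.62 with CpG ODN, against -1.22, -1.18 and -1.68 with control ODN and -1.26, -0.95 and -1.57 in medium. The CpG ODN arrays were the highest 3 of the 9, with a narrow gap to the medium array of replicate 2. The difference was 0.79 ± 0.22 (adjusted p = 0.0182) against control ODN and 0.69 ± 0.22 (adjusted p = 0.0370) against medium. The call against control ODN was lost without control ODN replicate 3 (0.63, adjusted p = 0.113) or CpG ODN replicate 2 (0.64, adjusted p = 0.121). The call against medium was lost without CpG ODN replicate 2 or 3 or medium replicate 1 or 3 (adjusted p from 0.0559 to 0.192). Ezh1, the alternative catalytic subunit of PRC2, had the opposite sign, -0.62 ± 0.28 against control ODN, and did not pass (adjusted p = 0.181); its difference against medium was 0.02 ± 0.28. The Ezh1 value came from 1 of 2 probes, and the second probe gave -0.03.

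Setd6 methylates proteins other than histones, the NF-kB subunit RelA among them. At 8 h its ratios were 1.89, 1.38 and 2.68 with CpG ODN, against 2.60, 3.00 and 3.28 with control ODN and 2.18, 2.52 and 3.35 in medium. Most CpG ODN values were lower, but the groups overlapped by 1 array. The difference against control ODN was -0.98 ± 0.31 (adjusted p = 0.0433). It lost its call when CpG ODN replicate 1 or 2, or control ODN replicate 2 or 3, was left out (adjusted p between 0.106 and 0.274), and the difference against medium, -0.70 ± 0.31, did not pass (adjusted p = 0.158). Setd1a, which methylates histones at active promoters, was at 0.14, 1.13 and 0.42 with CpG ODN, against -0.16, -0.71 and 0.50 with control ODN and 0.17, -1.60 and -0.63 in medium. Both controls overlapped the CpG ODN arrays. It was called against medium at 1.25 ± 0.37 (adjusted p = 0.0262), but at 0.79 with an adjusted p of 0.202 without medium replicate 2. The call was also lost without CpG ODN replicate 2 (0.97, adjusted p = 0.159) or medium replicate 3 (1.28, adjusted p = 0.0561). Kmt2a, the MLL enzyme of active promoters, was lower by sign, -0.59 ± 0.27 against control ODN and -0.54 ± 0.27 against medium, and passed neither test (adjusted p = 0.199 and 0.223).

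Histone demethylases reverse lysine methylation. Of 9 measured members 1 was lower with CpG ODN than with control ODN at 8 h (11.1%, background for lower 5.45%). Against medium 1 was lower (11.1%, background for lower 6.11%), and none was higher in either comparison. Kdm5b, an eraser of the methyl mark of active promoters, had 0.00, 0.21 and 0.18 with CpG ODN, against 0.45, 0.91 and 0.79 with control ODN and 0.56, 0.41 and 0.77 in medium. All 3 CpG ODN values were below the other 6. The difference was -0.59 ± 0.18 (adjusted p = 0.0300) against control ODN and -0.45 ± 0.18 (adjusted p = 0.103) against medium, and leaving out any 1 array of CpG ODN, or control ODN replicate 2 or 3, ended the call against control ODN (adjusted p from 0.0583 to 0.144). Kdm4c, which acts on a heterochromatin mark, read -0.20, -0.36 and -0.40 with CpG ODN, against -0.03, 0.43 and 0.10 with control ODN and 0.03, 0.60 and 0.44 in medium. Here too the CpG ODN arrays were the lowest. The difference passed against medium (-0.67 ± 0.18, adjusted p = 0.0126; -0.55 and 0.0848 without medium replicate 2) and missed against control ODN (-0.49 ± 0.18, adjusted p = 0.0905). Kdm5d showed a difference of -1.03 ± 0.47 against control ODN that did not pass (adjusted p = 0.185). It is a Y-chromosome gene, while the labels give female mice and a reference pool with testis RNA, so its ratio is not read as a level in these cells. Kdm4b had 1.13 ± 0.47 against medium (adjusted p = 0.120) and 0.06 ± 0.47 against control ODN.

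Histone acetyltransferases open chromatin by acetylating histone tails. Of the 5 measured, none was called against control ODN at 8 h with limma (background 10.0%), and 2 had an unadjusted p below 0.05 (background 22.2%). Kat6b, of the MYST family, was at -0.81, -0.59 and -0.96 with CpG ODN, against -0.25, 0.03 and -0.35 with control ODN and -0.33, 0.70 and -0.36 in medium. The CpG ODN arrays were the lowest 3. It was called against medium (-0.79 ± 0.26, adjusted p = 0.0435) but not without medium replicate 2 (-0.44, adjusted p = 0.325), and not against control ODN (-0.59 ± 0.26, adjusted p = 0.162). Leaving out any CpG ODN array also ended the call against medium (adjusted p from 0.0576 to 0.137). Kat2b, also called PCAF, gave 0.36 ± 0.17 against control ODN (adjusted p = 0.211).

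Deacetylases remove acetyl groups; the classical Hdac enzymes use zinc and the sirtuins use NAD. Against control ODN at 8 h, 10 of 12 members had a negative difference, 2 of them called (16.7% of the 12, background for lower 5.45%). The median was -0.25, against -0.12 over all genes, of which 61.3% were negative. Against medium, 8 of 12 were negative (66.7%, all genes 61.6%), with 1 called higher and 1 lower (16.7%, background 11.8%). There the median of -0.135 was close to the -0.13 of all genes. Sirt3, a mitochondrial deacetylase, had -1.60, -1.25 and -1.46 with CpG ODN, against -1.07, -0.36 and -0.74 with control ODN and -0.88, -0.70 and -0.72 in medium. No control array was as low as any CpG ODN array. The difference was -0.72 ± 0.22 (adjusted p = 0.0367) against control ODN and -0.67 ± 0.22 (adjusted p = 0.0488) against medium. Both calls lay close to the threshold: the first was lost when CpG ODN replicate 1 or 3, or control ODN replicate 2 or 3, was left out (adjusted p from 0.0771 to 0.209), and the second without any CpG ODN array or without medium replicate 2 or 3 (0.0593 to 0.145). Quantile normalization also ended both (adjusted p = 0.0704 against control ODN and 0.0959 against medium), and the call against medium was lost without centring (0.0641), with a term for early against late array database IDs (0.0512) and without the 4 arrays of early IDs (0.0620). The titles give each array such an ID, and those 4 arrays, at 2 h and 4 h, carry earlier ones than the rest; what the gap stands for is not stated. In cultures of mixed spleen cells, fewer cells of a type and less RNA per cell cannot be told apart in a lower value such as this.

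Sirt2, which deacetylates tubulin and histones, had -1.14, -1.04 and -1.12 with CpG ODN, against -0.25, -0.56 and -0.38 with control ODN. The CpG ODN arrays lay below all control ODN arrays, but medium, measured on 2 arrays at -1.19 and -0.78, covered the same range. The difference was -0.71 ± 0.20 (adjusted p = 0.0209) against control ODN and -0.12 ± 0.22 (adjusted p = 0.814) against medium, and the first fell short when CpG ODN replicate 1 or 3, or control ODN replicate 1 or 3, was left out (adjusted p from 0.0547 to 0.0717). Hdac3, the catalytic subunit of the NCoR and SMRT corepressor complexes, was called only against medium, at 0.69 ± 0.23 (adjusted p = 0.0451). Its ratios were -1.21, -0.41 and -0.77 with CpG ODN, against -0.95, -1.29 and -0.62 with control ODN and -0.95, -2.15 and -1.37 in medium. The groups overlapped, and without medium replicate 2 the difference was 0.36 (adjusted p = 0.350). The call was lost too without medium replicate 3 or CpG ODN replicate 2 or 3 (adjusted p from 0.0642 to 0.242). Among members with no call, Hdac6 had -0.54 ± 0.28 and Sirt1 -0.22 ± 0.28 against control ODN.

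Remodellers move, eject or space nucleosomes. Of 15 measured, 1 was called against control ODN at 8 h (6.67%, background for lower 5.45%) and 2 against medium (13.3%, background for lower 6.11%), all lower. Smarca2, also called BRM, is 1 of the alternative ATPases of the SWI/SNF complexes and showed the largest difference of any chromatin gene called. Its ratios at 8 h were -0.60, -0.74 and -1.12 with CpG ODN, against 0.41, 0.67 and 0.24 with control ODN and 0.60, 1.01 and 0.30 in medium. Each CpG ODN array was below 0 and each control array above it. The difference was -1.26 ± 0.20 (adjusted p = 4.63e-05) against control ODN and -1.46 ± 0.20 (adjusted p = 3.95e-06) against medium. At 2 h it had been -0.11 ± 0.17 and at 4 h -0.09 ± 0.17 against control ODN, and the shift between 2 h and 8 h, -1.15 ± 0.26, passed the test (adjusted p = 7.88e-03). Smarca4, the alternative ATPase BRG1, had a difference of 0.08 ± 0.22 against control ODN (adjusted p = 0.889).

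The scaffold subunit Smarcc2 of the same complexes had -0.73, -0.38 and -0.84 with CpG ODN at 8 h, against -0.29, 0.12 and -0.44 with control ODN and -0.02, 0.18 and -0.25 in medium. It lay below every medium array but overlapped control ODN. The difference passed against medium (-0.62 ± 0.20, adjusted p = 0.0419) and not against control ODN (-0.45 ± 0.20, adjusted p = 0.174), and leaving out CpG ODN replicate 1 or 3 or medium replicate 1 or 2 ended the call (adjusted p from 0.0640 to 0.166). Smarcc1, its paralog, varied more than almost any other member: medium at 8 h held 0.18, -0.21 and 2.48. Its difference of -1.46 ± 0.56 against medium did not pass (adjusted p = 0.0907). The CHD remodellers Chd1 and Chd3 had -0.59 ± 0.28 and -0.59 ± 0.27 against control ODN and -0.54 ± 0.28 and -0.62 ± 0.27 against medium, all short of the threshold.

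Bromodomain and chromobox readers, which dock on acetylated or methylated histones, held no called gene among 10 at 8 h with limma against either control (background 10.0% and 11.8%). At an unadjusted p below 0.05 there were 0 against control ODN (background 22.2%) and 1, Brd8, against medium (background 25.0%). With 10 genes, such counts say little about the class. Brd2 had a difference of -0.04 ± 0.22 and Brd7 of 0.09 ± 0.18 against control ODN, and the differences of all 10 ran from -0.27 to 0.29 on the probe used for each gene. A second probe of Brd8, measured on 32 arrays, gave -0.64 where the first gave -0.27, and a second probe of Cbx6, on 25 arrays, gave -0.73 where the first gave 0.01. The 5 DNA methyltransferases and TET dioxygenases, which write and oxidise the methyl group of CpG dinucleotides, had 0 calls and 0 unadjusted p below 0.05 against either control at 8 h. The backgrounds were 10.0% and 11.8% called and 22.2% and 25.0% unadjusted, so 0 of 5 says little about this class. Dnmt3a gave 0.04 ± 0.30, Dnmt3b -0.04 ± 0.24, Dnmt3l 0.06 ± 0.24 and Tet1 -0.27 ± 0.26 against control ODN. Dnmt1, the maintenance methyltransferase, had the largest spread between repeats of all 72 genes, a residual SD of 0.908 against a median of 0.333, and its difference had a wide error (-0.06 ± 0.75).

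**Figure D2:**
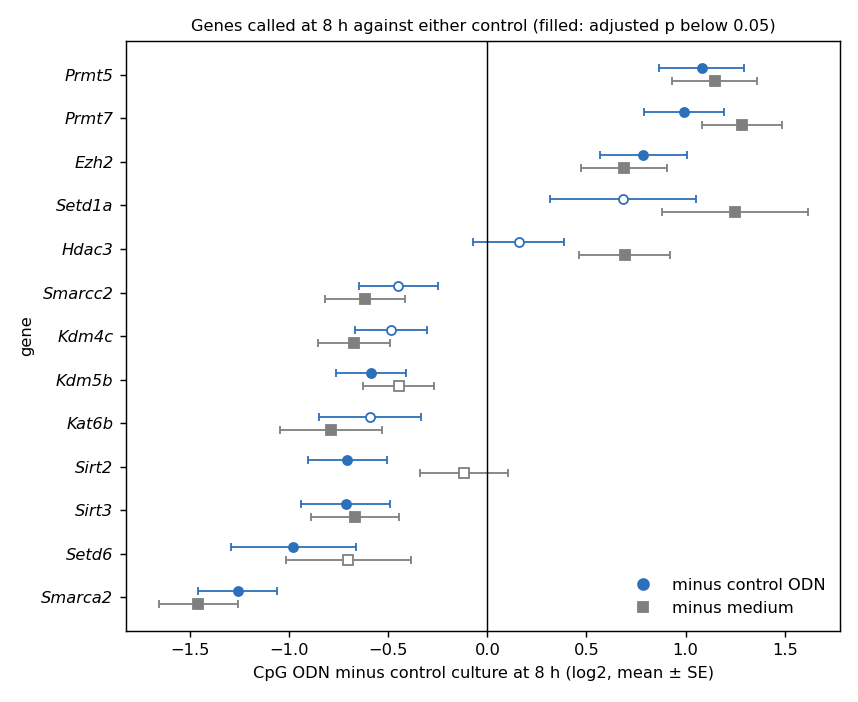
Log2 difference at 8 h (horizontal axis, mean ± SE) for the 13 chromatin genes called against at least 1 control; circles are CpG ODN minus control ODN, squares CpG ODN minus medium, and filled symbols have an adjusted p below 0.05. Smarca2 lies farthest left at -1.26 and -1.46, Prmt5 and Prmt7 lie near 1 or above in both, and Sirt2 lies apart from 0 against control ODN but near it against medium.

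Earlier in culture no chromatin gene was called with CpG ODN. At 2 h limma called 0 of 68 against control ODN (background 0.0430%), with 2 at an unadjusted p below 0.05 (background 2.29%), and 0 of 70 against medium (background 0.0420%), also with 2 (background 5.52%). Those were Smarcc1 (1.10 ± 0.48) and Dnmt1 (-1.35 ± 0.63) against control ODN, and Cbx7 (0.57 ± 0.25) and Kat2b (0.40 ± 0.15) against medium. The Dnmt1 difference leaned on 1 array: control ODN at 2 h read 0.11, 0.12 and 3.95, the last on replicate 4. Smarcc1 read 1.76 on CpG ODN replicate 4, the highest of its group, and -1.40 on control ODN replicate 1, the lowest. At 4 h it called 0 of 72 against control ODN (background 0.384%), with 1 unadjusted (background 3.17%), Prmt6 at 0.51 ± 0.24. Against medium at 4 h the count was 0 of 72 (background 0.218%), with 4 unadjusted (background 4.84%): Kdm1a (0.48 ± 0.22) and Smarca1 (0.46 ± 0.21) higher by sign, Chd6 (-0.83 ± 0.30) and Kdm5b (-0.33 ± 0.15) lower by sign. Few genes of any kind were called at these times. Control ODN differed from medium for 0 chromatin genes at each time (background 0% each), with 1, 2 and 7 at an unadjusted p below 0.05 at 2, 4 and 8 h (background 2.48%, 1.83% and 3.98%). The 7 at 8 h include Smarcc1 (-2.01 ± 0.56), Sirt2 (0.59 ± 0.22) and Hdac3 (0.54 ± 0.23), all with 0.999 as adjusted p. Over 8 h against 2 h, the CpG ODN minus control ODN difference changed for 3 of 68 genes (4.41%, background 3.26%): it moved up for Prmt5 and Prmt7 (background 2.13%) and down for Smarca2 (background 1.13%).

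**Figure D3:**
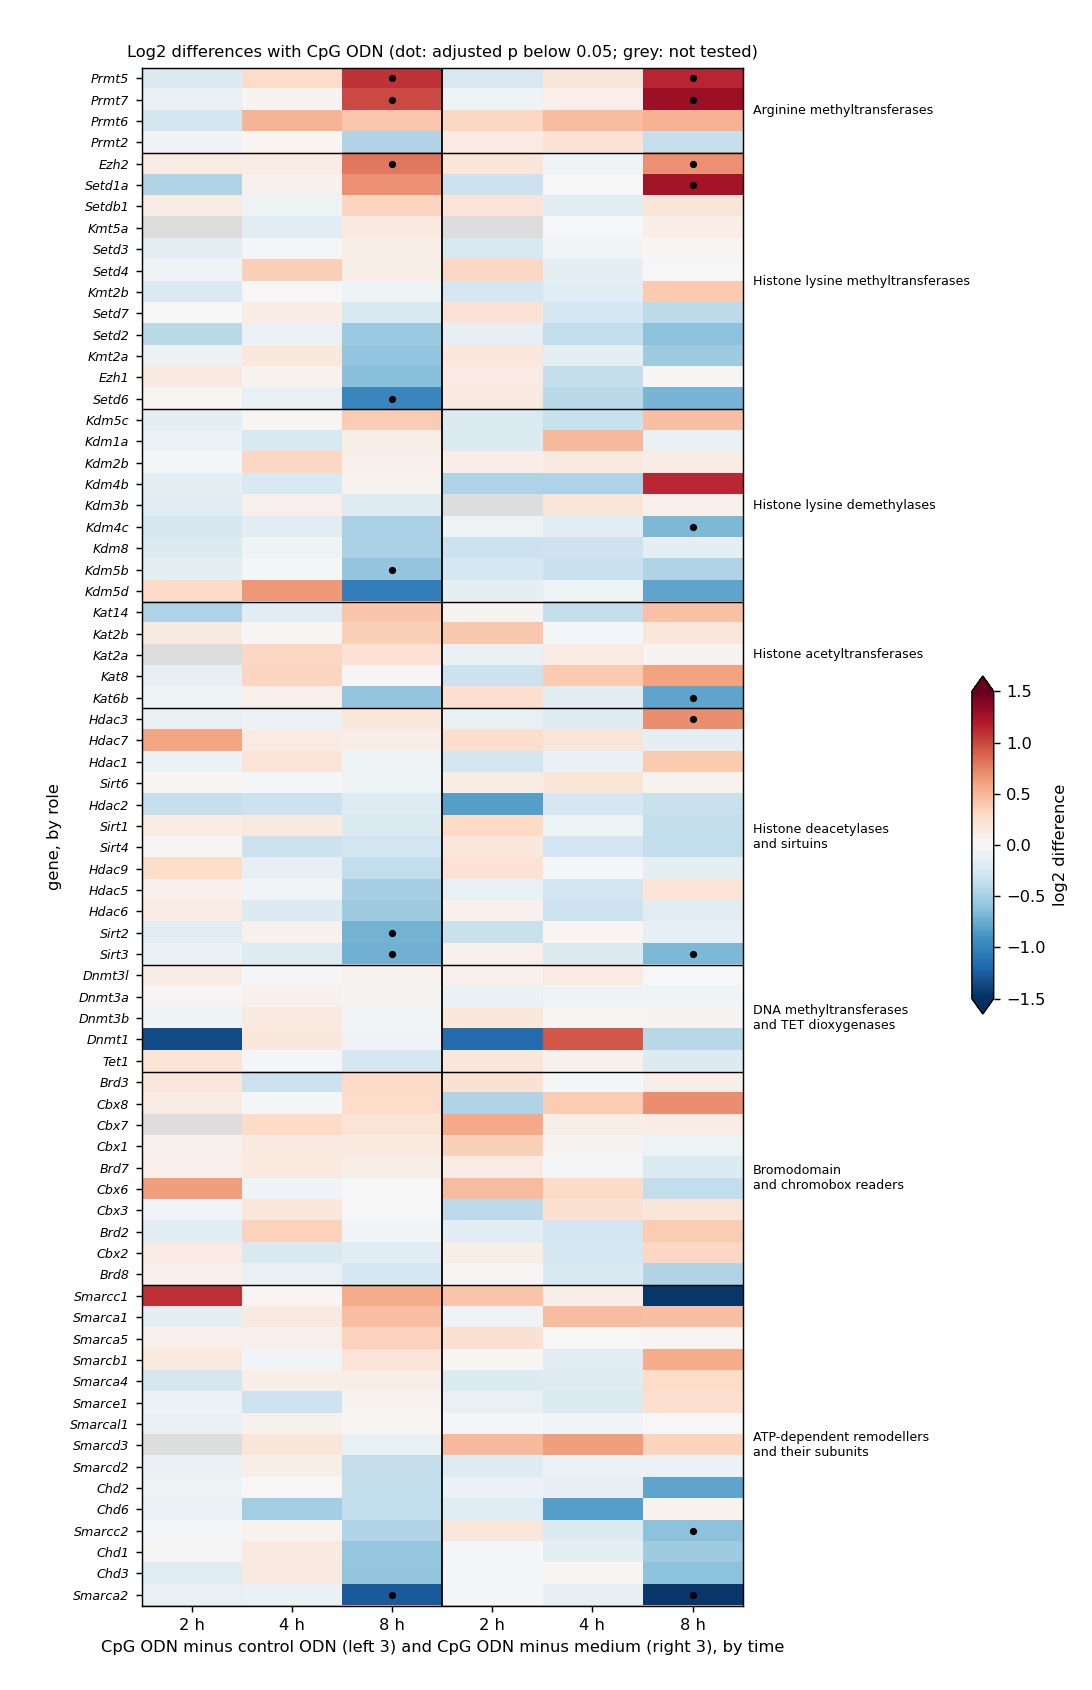
Log2 differences of the 72 measured chromatin genes (rows, by role) for CpG ODN minus control ODN (left 3 columns) and CpG ODN minus medium (right 3 columns) at 2, 4 and 8 h; red is higher and blue lower with CpG ODN, a dot marks an adjusted p below 0.05 and grey a gene not tested. Dots appear only in the 8 h columns, 8 against control ODN and 10 against medium.

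Some chromatin genes changed with time in culture without any ODN, about as often as other genes did. In medium, 11 of 71 differed between 8 h and 2 h (15.5%, background 14.6%), 8 higher (background 9.26%) and 3 lower at 8 h (background 5.30%), and 1 of 71, Setd6, differed between 4 h and 2 h (1.41%, background 1.58%). Setd6 was the member whose group means spanned the widest range of the series, 2.49. In medium it read 0.70, 0.59, 0.46 and 0.14 at 2 h, then 2.68, 1.88, 1.26 and 1.61 at 4 h, and 2.18, 2.52 and 3.35 at 8 h. The times did not overlap between 2 h and the later ones. The difference between 8 h and 2 h was 2.21 ± 0.29 (adjusted p = 9.75e-06) and that between 4 h and 2 h 1.38 ± 0.27 (adjusted p = 6.87e-03; 1.11 and 0.0505 without medium replicate 1 at 4 h). The count for 4 h against 2 h was 2 without medium replicate 2 at 2 h or replicate 3 at 4 h. Chd1, a remodeller that binds the methyl mark of active promoters, was 1.46 ± 0.26 higher at 8 h (adjusted p = 2.52e-04), at 2.12, 2.06 and 2.89 in medium at 8 h, against 1.20, 0.94, 0.85 and 0.60 at 2 h.

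The DNA demethylation enzyme Tet1 followed the same course, at 0.90, 0.59 and 0.84 in medium at 8 h, against -0.39, -0.71, -0.30 and -0.64 at 2 h. Every 8 h array was above every 2 h array, and the difference was 1.28 ± 0.24 (adjusted p = 5.78e-04). Kmt2a was higher at 8 h by 1.00 ± 0.26 (adjusted p = 7.72e-03; 0.83 and 0.0574 with quantile normalization), Kat2b by 0.79 ± 0.16 (adjusted p = 1.08e-03), Dnmt3a, the de novo DNA methyltransferase, by 0.77 ± 0.25 (adjusted p = 0.0382), Kdm4c by 0.58 ± 0.17 (adjusted p = 0.0187) and Kdm5b by 0.55 ± 0.17 (adjusted p = 0.0236). The 3 lower genes were deacetylases, with differences of -0.79 ± 0.21 for Sirt2 (adjusted p = 0.0116), -0.63 ± 0.18 for Hdac1 (adjusted p = 0.0165) and -0.97 ± 0.30 for Hdac5 (adjusted p = 0.0292). Hdac1 is a class I enzyme of the Sin3 and NuRD complexes and Hdac5 a class II enzyme that shuttles between nucleus and cytoplasm. The calls of Hdac1 and Hdac5 rested on medium replicate 2 at 8 h, at -0.64 for Hdac1 and -1.79 for Hdac5; without it the differences were -0.44 (adjusted p = 0.144) and -0.45 (adjusted p = 0.310). Sirt2 was measured in medium at 8 h on 2 arrays, -1.19 for replicate 2 and -0.78 for replicate 3, against -0.26 to -0.16 at 2 h; with either left out 1 array remained, too few for the filter, so its call has no such check. The call of Dnmt3a was lost without any array of medium except replicate 2 at 2 h, that of Kdm5b without replicate 3 at 8 h or replicate 2 or 4 at 2 h, and that of Kdm4c without replicate 2 or 3 at 8 h (adjusted p from 0.0516 to 0.131). Hdac5 also lost its call without replicate 3 at 8 h or replicate 2, 3 or 4 at 2 h (adjusted p from 0.0563 to 0.0703). Without medium replicate 2 at 8 h 6 chromatin genes were called, all higher and Sirt2 not tested, and without medium replicate 3 at 8 h there were 7.

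**Figure D4:**
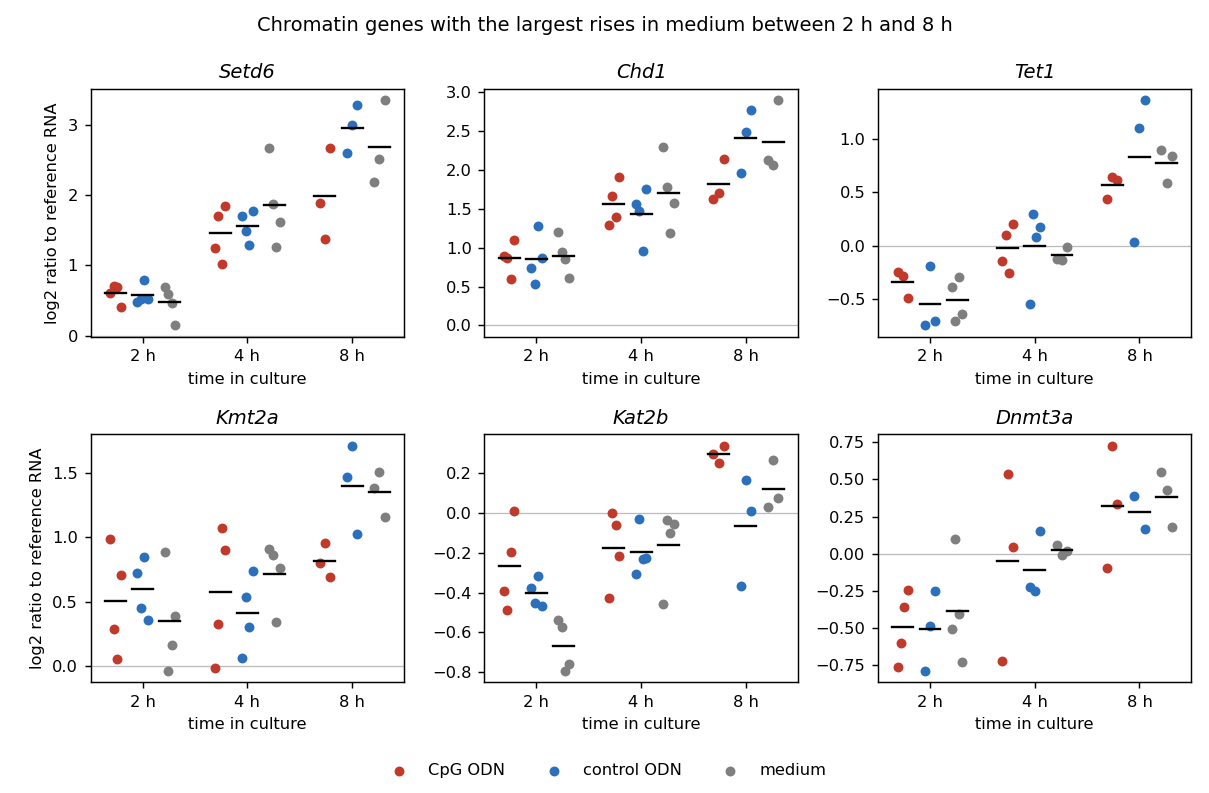
Log2 ratio to the reference RNA (vertical axis) by time in culture (horizontal axis) for the 6 chromatin genes with the largest rises in medium; each point is 1 array, bars are group means, and CpG ODN stands left of control ODN and medium. Setd6 and Chd1 climb in all 3 treatments, to medium arrays of 2.18 to 3.35 and 2.06 to 2.89 at 8 h.

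Most of the genes that were higher in medium at 8 h than at 2 h were lower by sign with CpG ODN than with control ODN at 8 h. This held for 6 of 8 chromatin genes (75%), Kdm5b and Setd6 among them, where 61.3% of all genes tested had that sign. It also held for 746 of 873 genes of all kinds (85.5%). Of those lower in medium at 8 h, 3 of 3 chromatin genes had a negative CpG ODN difference, against 251 of 497 genes of all kinds (50.5%). The 2 contrasts share no array, though they share the platform's probes. Their errors are still not separate: same-numbered control ODN and medium arrays at 8 h deviated together, with correlations of 0.484 to 0.653. These groups enter the 2 contrasts with opposite signs, so shared deviation can tilt the relation negative. How much it did so was not tested. Across the 71 chromatin genes the correlation between the contrasts was -0.199, and across 9320 genes it was -0.223. Genes are not independent replicates and no test is attached. Prmt5, Prmt7, Smarca2 and Sirt3, with large CpG ODN differences, had no called change in medium.

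**Figure D5:**
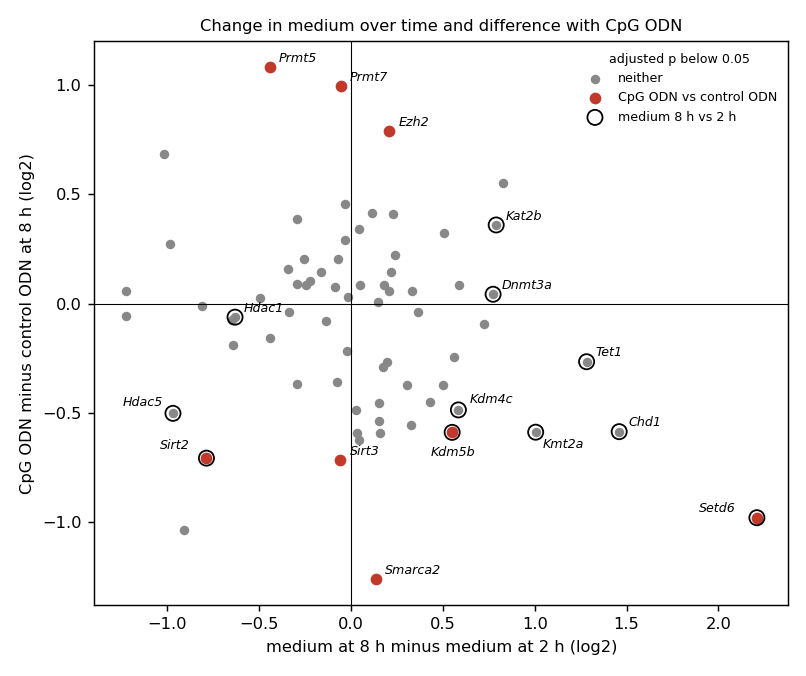
CpG ODN minus control ODN at 8 h (vertical axis, log2) against medium at 8 h minus medium at 2 h (horizontal axis, log2) for 71 chromatin genes; red points are called for CpG ODN against control ODN and circled points for time in medium. Setd6 sits at the lower right with 2.21 and -0.98, and Smarca2 at the bottom with -1.26 and little change in medium.

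A list of other chromatin proteins that the symbol rule leaves out, such as Polycomb partners, corepressors and histone chaperones, had 96 measured genes. Of these 4 were higher and 4 lower with CpG ODN than with control ODN at 8 h (8.33%, background 10.0%), and 6 higher and 7 lower than in medium (13.5%, background 11.8%). Called against both controls were Supt16, a subunit of the histone chaperone FACT, at 0.83 ± 0.23 against control ODN, Hells, a remodeller linked to DNA methylation, at 0.70 ± 0.21, Ing1, a reader of methylated histone H3, at -1.06 ± 0.21, Brwd1 at -0.70 ± 0.19 and the insulator protein Ctcf at -0.60 ± 0.19. Pcgf6 and Ncoa1 were higher and Actb lower against control ODN alone. These counts rested on few arrays: against control ODN they ran from 1 to 7 when 1 array was left out, with 1 when the third CpG ODN array was left out and 2 when the second was; leaving out the third control ODN array gave 4, and either of its other arrays 5. Against medium, 13 became 5 without replicate 2 of CpG ODN or of medium, and 7 without replicate 3 of CpG ODN.

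Cell type markers moved in the same arrays. With CpG ODN at 8 h, 4 of 15 B cell markers (Cd79b, Cr2, Fcrla and Pou2af1) and 4 of 13 T cell markers (Cd3e, Cd3g, Cd5 and Lat) were lower than with control ODN (26.7% and 30.8%, background for lower 5.45%), and none was higher. Against medium, 3 of the 15 (Cd79b, Cr2 and Fcrla) and 1 of the 13 (Cd3g) were lower (20.0% and 7.69%, background 6.11%). The mean over 8 B cell markers ran from 1.96 to 2.37 with CpG ODN, against 2.66 to 2.90 with control ODN and 2.51 to 3.01 in medium, and that over 3 T cell markers from 1.04 to 1.83, against 1.72 to 2.61 and 1.37 to 2.58. The B cell markers did not all move down. Over all 15, 11 differences were negative and 4 positive against control ODN (median -0.521, all genes -0.12). Against medium 9 were negative and 6 positive (median -0.092, all genes -0.13). Pax5 and Cd79a were 1.035 and 1.018 higher than in medium, without a call. Of 13 monocyte and macrophage markers, Cd14 and Vcam1 were lower and Fcgr1 higher against each control (23.1% called against each, background 10.0% and 11.8%). Gzmb, 1 of 8 NK cell markers (12.5%), and Irf8, 1 of 7 dendritic cell markers (14.3%), were higher against each. The background for higher was 4.55% against control ODN and 5.66% against medium. The 9 neutrophil markers all had negative differences against both controls, as did 61.3% and 61.6% of all genes. Against control ODN limma called 0 of the 9, with 1 at an unadjusted p below 0.05 (background 22.2%). Against medium it called S100a8 alone, as lower (11.1%, background for lower 6.11%). Of 6 erythroid markers limma called 0 against either control, with 0 and 2 at an unadjusted p below 0.05 (background 22.2% and 25.0%). Of 25 cell cycle and replication genes, 1 was higher (Mcm6) and 1 lower (Pola1) against control ODN (8.00%, background 10.0%). Against medium, 2 were higher (Mcm6 and Fen1) and 2 lower (Pola1 and Birc5), which is 16.0% with a background of 11.8%. In medium, 1 of the 25 was higher at 8 h than at 2 h (background 9.26%) and 9 were lower (background 5.30%). Their part in the differences of the chromatin genes was not tested.

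Among themselves the chromatin genes varied about as much as other genes. Their group means spanned a median range of 0.72, against 0.78 over all genes, and their residual SD had a median of 0.333, against 0.350. Setd6, Smarcc1, Dnmt1, Kdm5d and Chd1 spanned most, from 2.49 to 1.56. The flattest were Smarcal1 and Dnmt3l, with ranges of 0.25 and 0.26. Single calls also depended on the scaling: quantile normalization ended those of Kdm5b and Setd6 against control ODN (adjusted p = 0.110 and 0.0738) and of Hdac3, Kat6b and Smarcc2 against medium (0.0895, 0.0714 and 0.0681), and leaving out the centring ended those of Setd6 against control ODN (0.0507) and of Kat6b and Smarcc2 against medium (0.0550 and 0.0617). Without the 4 arrays of early database IDs the calls of Ezh2, Hdac3 and Kat6b against medium (0.0562, 0.0573 and 0.0544), of Setd6 between 4 h and 2 h (0.0684) and of Dnmt3a between 8 h and 2 h (0.0527) were lost. The counts at 8 h were sensitive to single arrays. Against control ODN, 8 became 3 without control ODN replicate 3, 4 without CpG ODN replicate 1 and 5 without control ODN replicate 2 or CpG ODN replicate 2 or 3. Against medium, 10 became 5 without medium replicate 2 or CpG ODN replicate 2, and 6 without medium replicate 3. Counts over all genes moved too with 1 array left out. They went from 949 to between 557 and 887 against control ODN, and from 1115 to between 690 and 1415 against medium. Prmt5, Prmt7 and Smarca2 were called against control ODN under every alternative tried, and against medium with 1 exception, Prmt5 when the fit held only the groups compared (adjusted p = 0.100).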

How the data were processed

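Log2 ratios of Cy5 (spleen cells) over Cy3 (reference RNA) were taken from the deposited series table; the direction follows from the dyes per the labels. The log base is not stated, and base 2 was read from the range of the values (-6.51 to 8.54). How the authors corrected background, filtered spots and normalized each array is not given in the sources used here. Probes were named from the platform annotation, and a gene with several probes took the probe with the fewest missing values (7 chromatin genes had several measured; at 8 h the probes of Cbx6, Chd2 and Kat8 differed in sign). Arrays were centred on their median. Group means (9 groups, 33 arrays) were fitted per gene and variances moderated using limma 3.58.1 (R 4.3.3; prior degrees of freedom 5.75) and Benjamini-Hochberg adjustment over all genes tested; a gene needed 2 measured arrays in each compared group. Errors are standard errors of this fit, the number of arrays limits the precision, and 12 comparisons were made. By rule, each chromatin gene called in any comparison is named, plus members of each role with small p or values on most arrays. The members and lists were chosen with earlier results of these data known. The fit was tested on simulated data. Alternatives were quantile normalization, no centring, replicate and database ID terms, stricter measurement, the mean of probes, only the groups compared, and each array left out. P-values set a difference between groups against the moderated spread of these arrays within groups, estimated over all 9 groups. A gene-specific dye effect drops out of differences between groups.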

Additional observations from a re-analysis of the deposited data

Results flagged for a closer look

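Among 108 groups of 4 arrays checked for the 20 chromatin genes called anywhere, 3 held an array far from the other 3, fewer than the 1 in 20 that chance gives. Setd6 read 0.79 on the control ODN array of replicate 3 at 2 h, with the others between 0.48 and 0.53. Kdm4c read -0.43 on the CpG ODN array of replicate 2 at 4 h, with the others between -0.01 and 0.05. Kat2b read -0.46 on the medium array of replicate 1 at 4 h, with the others between -0.10 and -0.04. For 3 genes the difference between CpG ODN and control ODN was not the same at 8 h as at 2 h, by the interaction term of the limma fit: it was larger at 8 h by 1.28 for Prmt5 and by 1.11 for Prmt7, and it was -1.15 for Smarca2, whose 8 h difference was lower.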

How the results depend on the processing

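Counts of called chromatin genes moved with the processing. Over the 33 gene results called in the main fit and 495 recomputations, 391 kept their call, 104 lost it and 0 reversed. These start from called results and mostly reuse the same arrays, so a reversal was unlikely beforehand. Results without a call were not among them. Negative differences against control ODN at 8 h numbered 38 of 72 as reported and 35 with quantile normalization. Against control ODN at 8 h, 8 calls became 5 with quantile normalization and 3 with only the groups compared, and 3 to 7 with 1 array left out. Against medium at 8 h, 10 became 6 with quantile normalization, 6 without the 4 arrays of early database IDs, 2 with only the groups compared and 5 to 13 with 1 array left out. Medium at 4 h against 2 h gave 4 with the replicate block, 0 without the early arrays, 0 with only the groups compared and 0 to 2 with 1 array left out. Medium at 8 h against 2 h gave 3 with only the groups compared and 6 to 15 with 1 array left out. Over all genes, 1 array left out gave 557 to 887 calls against control ODN (949 as reported). It gave 690 to 1415 against medium (1115 as reported) and 779 to 1601 for medium at 8 h against 2 h (1379 as reported). The growth of the CpG ODN difference between 2 h and 8 h gave 2 to 3 with 1 array left out. For the other chromatin list, 8 calls against control ODN became 3 with quantile normalization, 4 without the early arrays, 2 with only the groups compared and 1 to 7 with 1 array left out; 13 against medium became 8, 8, 2 and 5 to 13 under the same settings. Counts with CpG ODN at 2 h and 4 h, and of control ODN against medium, stayed at 0 in all alternatives run. Repeat numbers were not taken as pairs: same-numbered arrays deviated together (correlation over 0.1) in every pair only for control ODN and medium at 8 h, 3 of 3. Other groups showed it in part. It held for 3 of 4 pairs of CpG ODN and control ODN at 2 h and at 4 h, and of control ODN and medium at 4 h. For CpG ODN at 8 h it held for 2 of 3 against control ODN and 1 of 3 against medium. Correlations ran from -0.412 to 0.736. The main fit treats all arrays as independent, so shared deviation between repeats is not accounted for in it. With the replicate block the pairing gave 8 calls against control ODN and 15 against medium at 8 h, 14 for medium at 8 h against 2 h, and 1489 and 1698 calls over all genes at 8 h, against 949 and 1115 without it. Only the groups compared leaves few arrays to estimate the spread; the cause of the other shifts was not tested.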
